A study of Mus musculus with 2 samples.

Results

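The genes described here are the secreted Wnt ligands, their Frizzled and Lrp receptors, the secreted antagonists of the Sfrp, Dkk and Wif1 families, the agonist Rspo3, and the Tcf/Lef factors with Axin2. They were matched by gene symbol, under a rule that holds no expression values, and number 46 of the 21829 genes in the deposited tables. The rule was set with earlier results of these data known. In 2 libraries of mouse C2C12 cells, an immortalised myoblast line, transcript levels were measured by bulk RNA-seq, with 1 library from WT cells and 1 from Gne KO cells. Gne encodes the enzyme that begins sialic acid synthesis. The KO cells carry a CRISPR–Cas9 indel in exon 2 of Gne that creates a premature stop, and they were expanded from single clones, whereas no cloning is described for the WT cells. Both lines grew in serum-containing DMEM with gentamicin, and no treatment or time point separates them. With 1 library per line there is no replicate spread, so no test was possible, and the KO genotype cannot be told apart from the history of the clone, from the culture or from the library.

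Wnt ligands are lipid-modified glycoproteins that act over short distances. In the canonical branch a ligand joins a Frizzled receptor to Lrp5 or Lrp6 at the cell surface, the complex that destroys β-catenin is held off, and β-catenin enters the nucleus to work with Tcf/Lef factors. Secreted Sfrp and Wif1 proteins bind the ligands, Dkk proteins bind the Lrp co-receptors, and Axin2 is a widely used target gene that feeds back on the pathway. In muscle, Wnt signals are known for roles in the induction of the embryonic myogenic programme and in the behaviour of satellite cells, and Wnt10b is known for holding mesenchymal precursors away from the fat cell fate.

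The deposited values were read as FPKM, fragments per unit of transcript length and of library depth, which allows levels of different genes to be compared per length. The columns summed to 568410 in WT and 574144 in KO, and 13709 and 13589 genes were above 0. The number of reads was not given, but low values rose in steps from which 1 fragment on a transcript of 2000 bases was estimated at 0.0178 FPKM in WT and 0.0198 FPKM in KO. Changes are given as log2((KO + 1)/(WT + 1)), which understates the change of low genes, and a gene passed the filter when its mean over both libraries was at least 1 FPKM. Gne itself stood at 6.67 FPKM in WT and 7.34 FPKM in KO, a log2 change of 0.12. The level of Gne RNA therefore does not check the label, since a frameshift need not lower it, and "KO" below stands for the library labelled KO.

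Of the 46 genes, 18 passed the filter, 12 were above 0 but below it, and 16 were listed at 0 in both libraries. More than 2-fold higher in KO were 2 of the 18 (Wnt10a and Wnt6), and more than 2-fold lower were 5 (Wnt10b, Wnt4, Wnt9a, Sfrp2 and Tcf7). The members' counts come to 11.1% and 27.8% of the 18, where the background shares over the 10542 genes that passed were 2.84% in the higher direction and 3.43% in the lower. Direction was balanced, with a higher value for 9 genes and a lower one for 9, and a median log2 change of -0.03 against 0.01 over all genes. The size of change was larger than over all genes, with a median absolute log2 change of 0.76 against 0.22 for all genes. Sfrp2, Lef1 and Fzd8 passed the filter through 1 library only, and a gene that passes only through its higher library had to differ between them, so the counts over the 18 are a description.

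**Figure D1:**
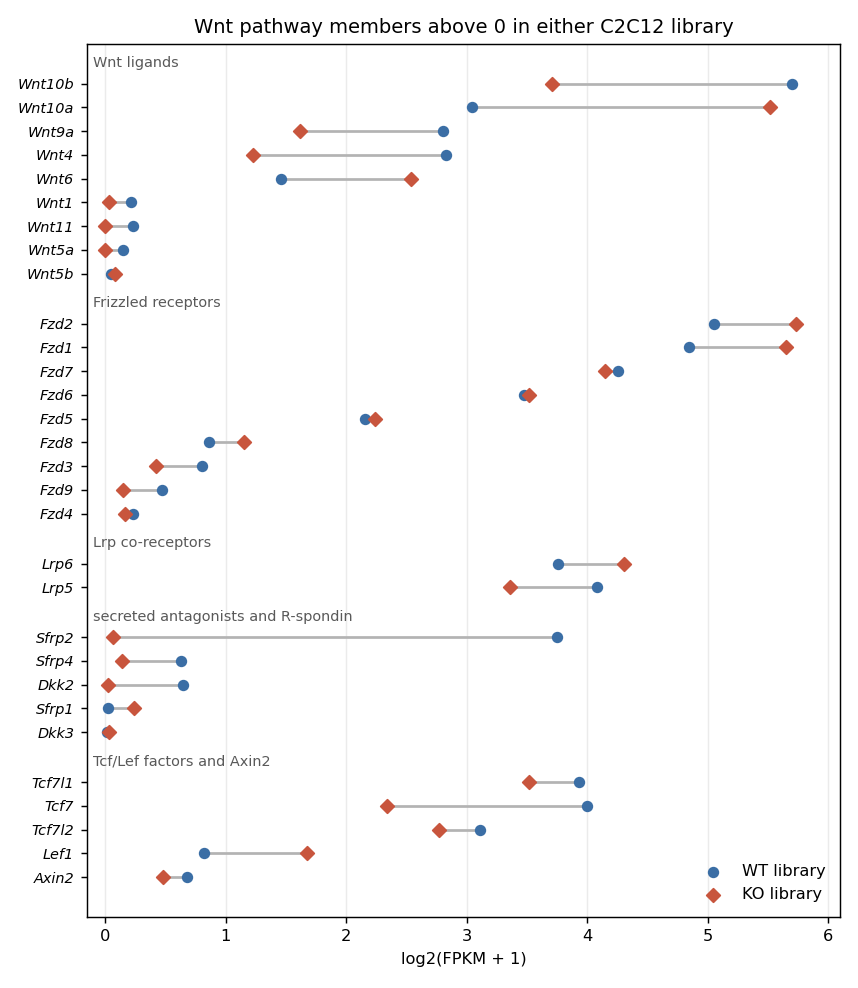
Level of each member above 0 in either library, as log2(FPKM + 1), with circles for the WT library, diamonds for the KO library and a grey line joining the pair; each point is 1 library. The longest lines belong to Sfrp2, Wnt10a and Wnt10b, while Fzd7, Fzd6 and Fzd5 have nearly coincident points.

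The Wnt ligands held the clearest contrast, because the 5 that passed the filter all differed by more than 2-fold. Higher were 2 (40%, against 2.84% of all genes) and lower were 3 (60%, against 3.43%), a group too small to set against those shares. The calls for Wnt6, Wnt4 and Wnt9a depend on the pseudocount, as given below. The summed level of the ligands moved little, from 72.5 FPKM in WT to 64.97 FPKM in KO. The leading ligand was a different one in each line. Wnt10b made up 70.3% of the summed ligand FPKM in WT and 18.5% in KO, whereas Wnt10a made up 10.0% in WT and 68.7% in KO. The ratio of Wnt10a to Wnt10b was 0.142 in WT and 3.71 in KO, a 26.0-fold difference between the lines that does not depend on how either library was scaled.

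Wnt10a and Wnt10b are paralogues, and both act mainly through β-catenin. Wnt10a (chr1:74830675-74844355, GRCm39) rose from 7.26 FPKM in WT to 44.6 FPKM in KO, a 6.15-fold ratio and a log2 change of 2.47, which placed it at rank 45 from the highest of 10542 genes. Wnt10b (chr15:98668593-98690045) fell from 51.0 FPKM in WT to 12.03 FPKM in KO, 4.24-fold lower, with a log2 change of -2.00 at rank 88 from the lowest. By the fragment estimate these values rest on about 503 and 2780 fragments for Wnt10a and about 5273 and 1119 for Wnt10b, so counting error is small for both, although this says nothing of variation between cultures. Wnt10b overlaps Wnt1 by 2.307 kb on the opposite strand, and whether counting used strand is not given in the sources used here. Wnt1, the ligand that helps pattern the midbrain and the dorsal neural tube, was at 0.160 FPKM in WT and 0.022 FPKM in KO.

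Wnt6 lies next to Wnt10a, with a gap of 5.7 kb between the genes on the same strand of chromosome 1, and the pair was higher in KO together. Wnt6 (chr1:74810922-74824975), an epithelial and somite-associated ligand, rose from 1.75 to 4.82 FPKM, a log2 change of 1.08. Its share of summed ligand FPKM was 2.41% in WT and 7.42% in KO. The 53 genes within 5 Mb of Wnt10a, Wnt6 included, had a median log2 change of 0.02, with 2 beyond 2-fold upward (Wnt6 and Ptprn) and 5 downward.

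Wnt4 and Wnt9a completed the lower group. Wnt4 (chr4:137004373-137027037), a ligand known for kidney and female gonad development, fell from 6.101 FPKM in WT to 1.34 FPKM in KO, 4.54-fold lower with a log2 change of -1.60. Wnt9a (chr11:59197567-59224378), which takes part in joint formation, fell from 5.97 to 2.07 FPKM, 2.88-fold lower with a log2 change of -1.18. Their shares of summed ligand FPKM were 8.41% and 8.23% in WT and 2.07% and 3.19% in KO. The calls for Wnt6, Wnt4 and Wnt9a depend on the pseudocount, since adding 5 in place of 1 gave log2 changes of 0.54, -0.81 and -0.63.

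The remaining 14 ligands were at most 0.177 FPKM. Wnt11 was at 0.177 FPKM in WT and listed at 0 in KO, and Wnt5a was at 0.107 FPKM in WT and listed at 0 in KO. Both are the best known ligands of the branch that acts without β-catenin, and these values correspond to about 16.1 and 21.7 fragments. Wnt5b was at 0.037 and 0.061 FPKM. Besides Wnt1, given above, the other 10, which include the canonical ligands Wnt3a, Wnt2 and Wnt8a and the muscle-associated Wnt7a, were listed at 0 in both. As a check on values of 0, of 51 proteasome and RNA polymerase II genes 2 were listed at 0 in WT and 3 in KO. These were Psma8, Psmb8 and, in KO only, Psmb11, which encode subunits known from testis, immune cells and thymus, and the other genes of that set were above 0 in both libraries. As most of that set is widely expressed, the check cannot tell whether a low gene listed at 0 was absent or missed.

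**Figure D2:**
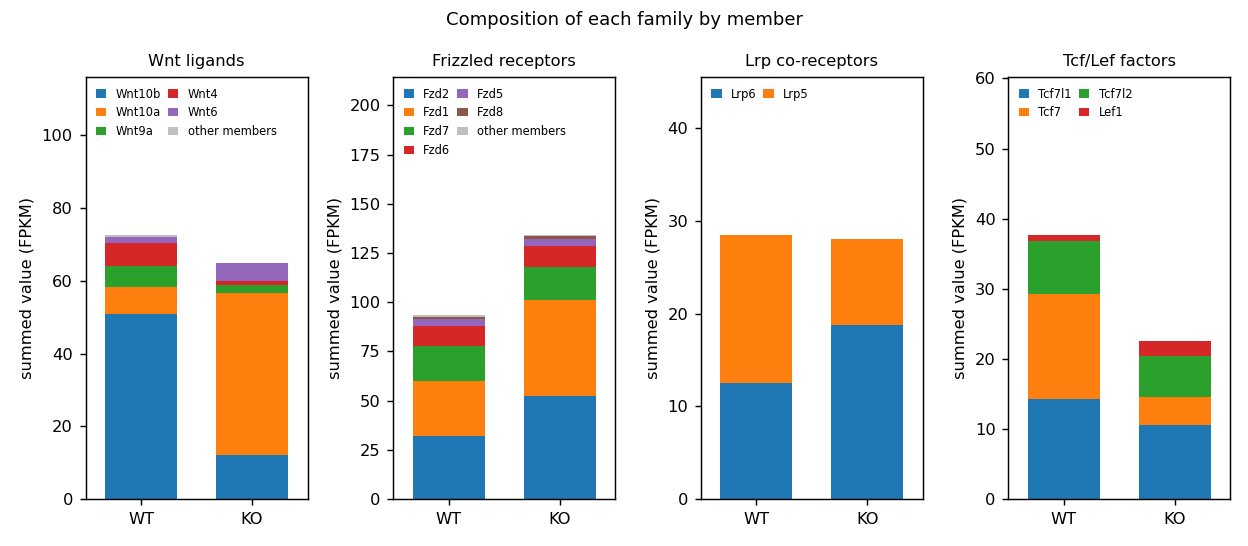
Summed FPKM of each family in the WT and the KO library, stacked by member, with 1 library per bar and a separate axis for each family. The ligand bars are of similar height but are mostly Wnt10b in WT and mostly Wnt10a in KO, and the Frizzled bar is taller in KO.

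The changes of the leading ligands stood apart from those of their chromosomal neighbours. Around Wnt10b, the median log2 change of 98 genes within 5 Mb was -0.39, with 3 beyond 2-fold upward and 4 downward. Wnt10b therefore lay -1.60 from its neighbours on the log2 scale, a smaller distance than its own change of -2.00. Wnt10a lay 2.45 above its neighbours, and Wnt4 and Wnt9a lay -1.52 and -1.15 from theirs. Whether the lower level of the Wnt10b region reflects copy number was not tested.

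**Figure D3:**
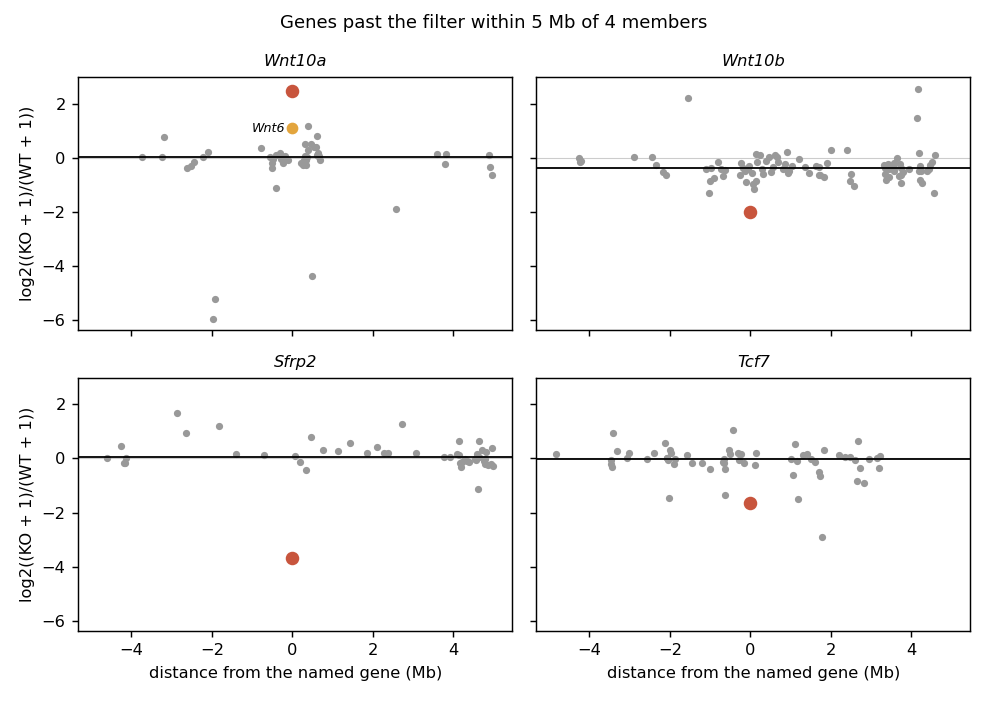
Log2 change of every gene past the filter within 5 Mb of Wnt10a, Wnt10b, Sfrp2 and Tcf7, against distance from that gene in Mb; the large red point is the named gene, the orange point is Wnt6, grey points are neighbours and the black line is the neighbours' median. The neighbours' median lies at -0.39 around Wnt10b and within 0.06 of 0 around the other 3 genes.

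Frizzled receptors, the seven-pass proteins that bind Wnts, showed no change past 2-fold. Of the 10 genes 6 passed the filter and 0 were more than 2-fold higher or lower, beside background shares of 2.84% and 3.43%. So few genes cannot set the family apart from those shares. A higher value in KO was seen for 5 of the 6, with a median log2 change of 0.19. The summed level was 93.7 FPKM in WT and 134 FPKM in KO, a ratio of 1.43. That difference lay almost wholly in Fzd1 and Fzd2. Fzd1 was at 27.7 FPKM in WT and 49.2 FPKM in KO, a log2 change of 0.81. Fzd2 was at 32.2 and 52.2 FPKM, a log2 change of 0.68. Their neighbours had medians of 0.13 and -0.05, below the change of either gene, and copy number was not tested.

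Fzd7, the third member of the Fzd1, Fzd2 and Fzd7 subfamily and a receptor known in satellite cells, did not share this difference. It was at 18.1 FPKM in WT and 16.7 FPKM in KO, a log2 change of -0.11, and its share of summed Frizzled FPKM was 19.3% in WT and 12.5% in KO. The ratio of Fzd1 to Fzd7 was 1.53 in WT and 2.94 in KO, and that of Fzd2 to Fzd7 was 1.78 and 3.12. Fzd6, which is known for hair and skin polarity, was at 10.1 and 10.5 FPKM, and Fzd5, a receptor needed in the eye and the yolk sac, was at 3.45 and 3.73 FPKM. Fzd8 was at 0.815 and 1.22 FPKM, a log2 change of 0.29. Below the filter, Fzd3, Fzd9 and Fzd4 had the lower value in KO, with the highest value of these at 0.747 FPKM for Fzd3 in WT, and Fzd10 was listed at 0 in both. In both lines the order of levels was Fzd2, Fzd1, Fzd7, Fzd6, Fzd5 and Fzd8, and no spread over samples was available to say which neighbours in that order differ.

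The Lrp co-receptors exchanged rank at a constant sum, though neither passed 2-fold. Lrp5 was at 15.9 FPKM in WT and 9.28 FPKM in KO, a log2 change of -0.72. Lrp6, which carries more of the canonical signal in the embryo, was at 12.5 and 18.7 FPKM, a log2 change of 0.54. Their summed level was 28.4 FPKM in WT and 27.99 FPKM in KO, and the ratio of Lrp6 to Lrp5 was 0.786 in WT and 2.02 in KO.

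**Figure D4:**
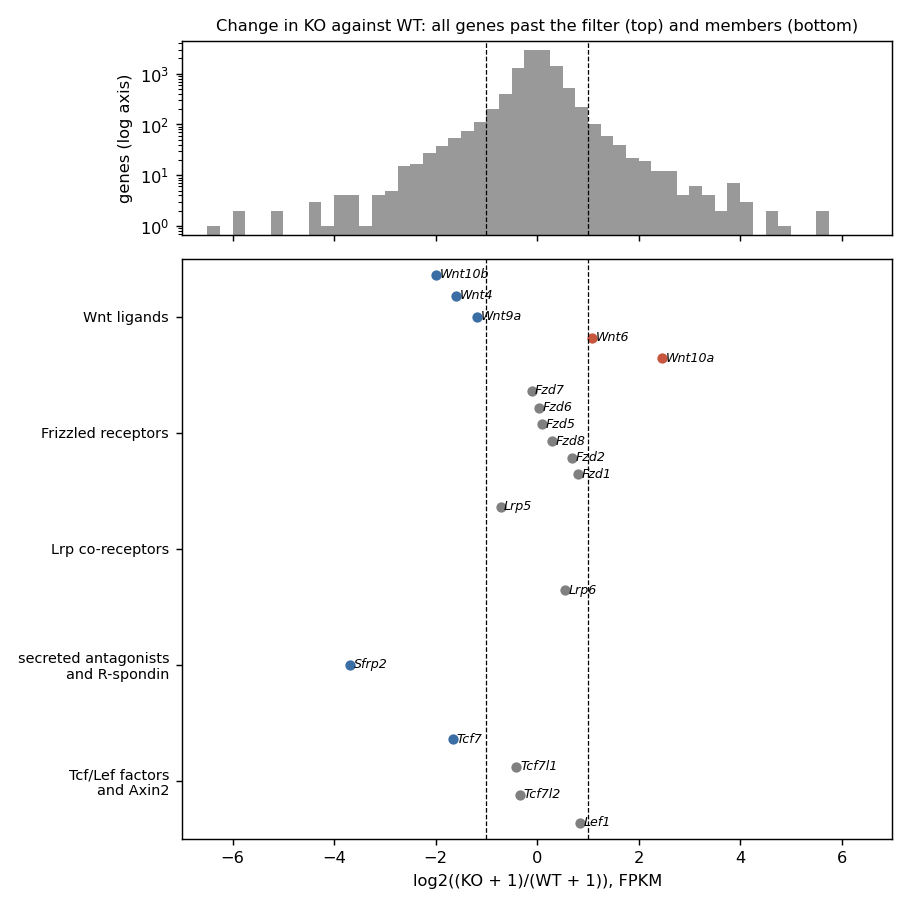
Log2((KO + 1)/(WT + 1)) of all 10542 genes past the filter as a histogram with a log count axis (top), and of the 18 members past the filter by role (bottom), where red is more than 2-fold higher, blue more than 2-fold lower and grey within 2-fold; dashed lines mark 2-fold. The 5 ligands all lie outside the dashed lines, with 2 on the right and 3 on the left, and the 6 Frizzled genes all lie between them.

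Among the secreted antagonists, Sfrp2 had the largest log2 change of the 18 members past the filter at the pseudocount of 1 used here, and Wnt10a had the largest with a pseudocount of 5 (2.02 against -1.79 for Sfrp2). Sfrp2 (chr3:83673481-83681623), a soluble protein with a Frizzled-like domain that binds Wnts, fell from 12.5 FPKM in WT to 0.050 FPKM in KO, a log2 change of -3.68 at rank 14 from the lowest of 10542 genes. By the fragment estimate the KO value rests on about 2.71 fragments against about 752 in WT, so the size of the change is poorly determined and the log2 change was -6.39 with a pseudocount of 0.1. The 51 genes within 5 Mb of Sfrp2 had a median log2 change of 0.06, and 1 of them was more than 2-fold lower.

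The summed level of the 4 Sfrp genes was 13.0 FPKM in WT and 0.337 FPKM in KO. Sfrp2 made up 95.7% of that sum in WT and 14.8% in KO, where Sfrp1 made up 54.3% and Sfrp4 30.9%. Sfrp4, a relative studied in bone, was at 0.547 FPKM in WT and 0.104 FPKM in KO. Sfrp1 was at 0.015 and 0.183 FPKM, about 1.95 and 21.4 fragments, so it was the Sfrp gene with the highest value in KO although it stayed below the filter. Sfrp5 was listed at 0 in both libraries.

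The Dkk inhibitors were low throughout. Dkk2, which can act as an agonist or an antagonist at Lrp6, was at 0.564 FPKM in WT and 0.020 FPKM in KO, about 58.8 and 1.88 fragments. Dkk3, a divergent member of the family, was at 0.010 and 0.023 FPKM. Dkk1, the classical Lrp6 inhibitor, and Dkk4 were listed at 0 in both, as were Wif1, which binds Wnts directly, and Rspo3, which keeps Frizzled receptors at the surface.

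The Tcf/Lef factors, which carry β-catenin to DNA, showed a lower summed level in KO, at 37.6 FPKM in WT and 22.5 FPKM in KO. Most of that difference was Tcf7. Tcf7 (chr11:52143107-52174619) fell from 14.97 FPKM in WT to 4.05 FPKM in KO, 3.70-fold lower with a log2 change of -1.66. The median log2 change of 62 genes within 5 Mb was -0.02. Tcf7l1, often a repressor in the absence of signal, was at 14.2 and 10.5 FPKM, a log2 change of -0.41. Tcf7l2 was at 7.65 and 5.81 FPKM, a log2 change of -0.34. Lef1, usually an activator, went the other way with 0.770 FPKM in WT and 2.20 FPKM in KO, a log2 change of 0.85 that passed 2-fold at 1.40 with a pseudocount of 0.1.

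The make-up of this family therefore differed between the lines. Tcf7 was 39.8% of summed Tcf/Lef FPKM in WT and 17.97% in KO, and Tcf7l1 was 37.8% and 46.5%. Tcf7l2 was 20.3% and 25.8%, and Lef1 was 2.05% and 9.76%. The ratio of Lef1 to Tcf7 was 0.051 in WT and 0.543 in KO. Axin2, the feedback target, was below the filter in both lines, at 0.605 FPKM in WT and 0.392 FPKM in KO, and it was therefore not counted.

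The other genes of the pathway were taken from a list of 95 that excluded the 46 members, of which 61 passed the filter. More than 2-fold higher in KO were 3 (4.92%, against 2.84% of all genes), and more than 2-fold lower were 4 (6.56%, against 3.43%), with a median log2 change of 0.08. Of the 3 that were higher, all passed the filter through the KO library alone.

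The 4 lower genes were Porcn, Notum, Ptk7 and Ccn5. Of the 3 ligand secretion and removal genes past the filter, 2 were lower (Porcn and Notum) and Wls was within 2-fold. That group is too small to set against the background share of 3.43%. Porcn, the enzyme that adds the lipid Wnts need for secretion and receptor binding, fell from 9.79 FPKM in WT to 2.55 FPKM in KO, a log2 change of -1.60. Notum, the esterase that removes that lipid, fell from 12.6 to 1.42 FPKM, a log2 change of -2.49. Wls, the carrier that takes lipidated Wnts to the surface, was at 136 and 163 FPKM, a log2 change of 0.26. Ptk7, a pseudokinase co-receptor, fell from 11.4 to 4.91 FPKM (log2 change -1.07), and Ccn5, described as a Wnt1-induced gene, fell from 6.01 to 2.37 FPKM (log2 change -1.06). Measured against genes within 5 Mb, the changes of Ptk7 and Ccn5 were -0.96 and -0.99, inside 2-fold.

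The 3 higher genes were Cthrc1, Apcdd1 and Daam2, which act in different ways. Cthrc1, a secreted protein that favours the β-catenin-independent branch, rose from 0.370 FPKM in WT to 6.27 FPKM in KO, a log2 change of 2.41. Apcdd1, a membrane inhibitor of Wnt reception, rose from 0.926 to 4.60 FPKM (log2 change 1.54). Daam2, a formin that works with Dishevelled, rose from 0.704 to 3.13 FPKM (log2 change 1.28).

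The genes of the intracellular core lay within 2-fold at the pseudocount of 1. Of the 18 cytoplasmic genes 0 were beyond 2-fold, beside background shares of 2.84% upward and 3.43% downward, and their log2 changes ran from -0.97 (Csnk1e) to 0.43 (Tnks2). Csnk1e, a casein kinase gene, lay at the threshold, with 41.6 FPKM in WT and 20.7 FPKM in KO, a WT to KO ratio of 2.01 and a log2 change of -1.002 with a pseudocount of 0.1. Ctnnb1, which encodes β-catenin, was at 219 FPKM in WT and 242 FPKM in KO, a log2 change of 0.14. The scaffold genes Apc and Axin1 had log2 changes of 0.38 and -0.07, and the kinase gene Gsk3b had 0.32. Of 11 nuclear cofactors past the filter 0 were beyond 2-fold, beside the same shares of 2.84% and 3.43%. Groups of 18 and 11 genes are too small to be set apart from those shares. Of 12 target genes past the filter, 1 was more than 2-fold lower (Ccn5), 8.33% against 3.43% of all genes. More than 2-fold higher were 0, against 2.84%. A lower value in KO was seen for 7 and a higher one for 5, with a median log2 change of -0.16. So few genes cannot be set apart from all genes. Each gene was given 1 role, so Notum, Apcdd1 and Axin2, placed under other roles, are not among these 12. Id2 lay near the threshold, at 92.9 FPKM in WT and 47.8 FPKM in KO, a log2 change of -0.94. β-catenin protein and its activity were not measured in these data.

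**Figure D5:**
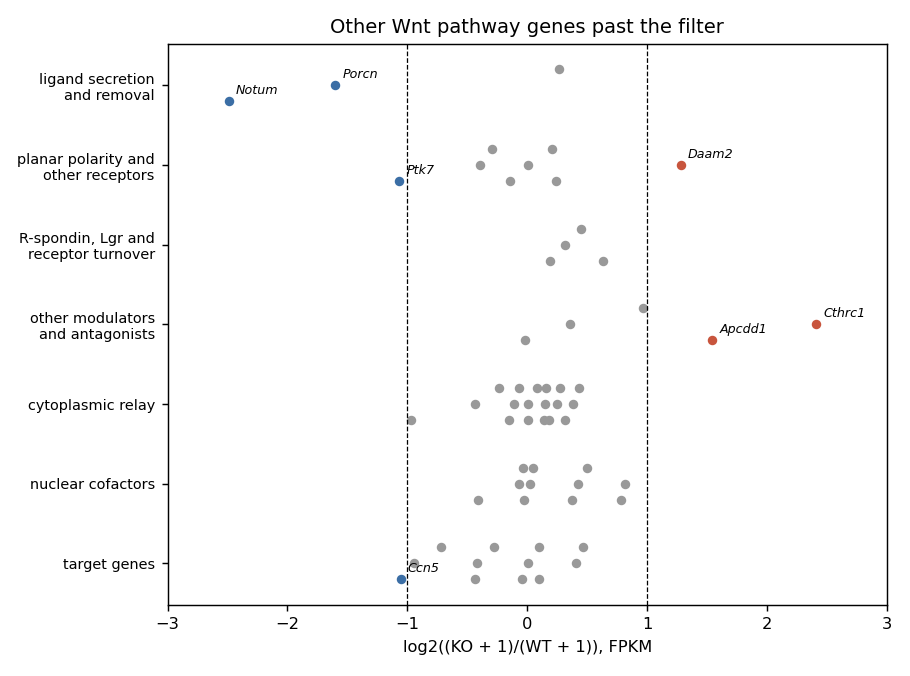
Log2((KO + 1)/(WT + 1)) of the 61 other Wnt pathway genes past the filter, by role, where red is more than 2-fold higher, blue more than 2-fold lower, grey within 2-fold and dashed lines mark 2-fold; vertical offsets only separate points. The named genes are the 3 higher and 4 lower ones, and the cytoplasmic and nuclear genes all lie between the lines.

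Markers of cell identity moved in the same comparison. The 8 myoblast markers summed to 246 FPKM in WT and 54.1 FPKM in KO. A lower value in KO was seen for 6 and a higher one for 1 (Myf5), and Pax7 was listed at 0 in both. Of the 6, Itga7 was within 2-fold, at 47.4 and 28.4 FPKM, and Myog was near 0 in both, at 0.068 and 0.027 FPKM. Cdh15 was at 16.6 and 0.701 FPKM, and Chrna1 at 15.3 and 0.917 FPKM. Myod1, the factor that defines the myogenic fate, was at 60.0 FPKM in WT and listed at 0 in KO, Des was at 97.6 and 3.84 FPKM, and Myf5 was at 9.14 and 20.3 FPKM. The label of myoblast therefore held for the WT library on these markers and only in part for the KO library. Fibroblast and mesenchymal markers summed to 264 and 240 FPKM with Thy1 and Lum listed at 0 in both. Of this list only Ly6a had a lower value in KO (198 and 146 FPKM), and 3 had a higher one, namely Pdgfra (10.8 and 12.3 FPKM), Pdgfrb (54.5 and 80.2 FPKM) and Dcn (0.272 and 1.68 FPKM). Osteoblast markers summed to 24.1 and 17.95 FPKM, nearly all of it Runx2 (22.96 and 17.73 FPKM). Bglap was at 1.09 and 0.226 FPKM, Sp7 was at 0.013 FPKM in WT and listed at 0 in KO, and Ibsp was listed at 0 in both. Endothelial markers summed to at most 0.028 FPKM with Cdh5 and Kdr listed at 0 in both, macrophage or blood markers to at most 0.078 FPKM with Ptprc and Adgre1 listed at 0, and adipocyte markers to at most 0.321 FPKM with Adipoq and Plin1 listed at 0. In bulk RNA, fewer cells of a type and less RNA per cell cannot be told apart, and the part of the myoblast markers in the Wnt values was not tested.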

How the data were processed

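RNA-seq values of 1 WT and 1 Gne KO library of C2C12 cells were used. The deposited tables hold 1 value per gene symbol and library. The authors trimmed reads, aligned them and quantified genes with RSEM, for which the methods name expected counts and TPM. The deposited tables do not name their unit, which was read here as FPKM, another RSEM output, since the columns do not sum to 1 common total as TPM would; TPM over only some of the genes would look alike. The submitters' processing notes name Trim Galore 0.6.6, STAR 2.7.9a and RSEM 1.3.3. The notes and the paper's methods name different mouse builds and STAR versions, and the labels and supplement different library kits. The annotation is not given in the sources used here. Differential calls of the authors were not used.

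Of 21853 rows, 24 repeated symbols were reduced to the row with the higher mean, leaving 21829 genes. With 1 library per group no test was run, and log2((KO + 1)/(WT + 1)) was read against 2-fold among the 10542 genes whose mean over both libraries reached 1 FPKM. Members at 1 FPKM or more in either library, or above 0.1 in 1 library and at 0 in the other, were named with their values, as were further low members that complete a family, which were chosen after their values were seen. Pathway genes were named when beyond 2-fold, with Ctnnb1, Apc, Axin1, Gsk3b, Porcn and Wls fixed as the core. Csnk1e, Id2, Tnks2, Nkd2, Ptprn and the genes of the closing observations were named after their values were seen. Positions came from GENCODE vM39 on GRCm39, matched by symbol for 10171 of the 10542 genes, and neighbours are genes past the filter within 5 Mb. Of 98 listed pathway symbols 95 were found. Fragment numbers were estimated from the steps between low values, times canonical transcript length, by settings chosen after seeing the values; they are approximate and give no interval. The members and lists were chosen with earlier results of these data known. Alternatives were pseudocounts of 0.1 and 5, no filter, a filter of 5, 2 rescalings and subtraction of the neighbours' median. Scripts ran in Python 3.11.15 with numpy 2.4.6, pandas 2.3.3 and matplotlib 3.10.9 and were tested on simulated data. Those data held no noise and only large planted changes in well expressed genes. They therefore check the code and not the calls near 2-fold or near the filter.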

Additional observations from a re-analysis of the deposited data

How the results depend on the processing

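Wnt10a was more than 2-fold higher, and Wnt10b, Sfrp2 and Tcf7 more than 2-fold lower, under all 7 alternatives. A pseudocount of 5 gave 1 higher and 3 lower members, in place of 2 and 5, and lost Wnt6, Wnt4 and Wnt9a; the pathway list then gave 1 higher and 1 lower gene, in place of 3 and 4, and all genes gave 102 and 176, in place of 299 and 362. A filter of 5 FPKM left 12 members with 1 higher and 3 lower, because Wnt6, Wnt4 and Wnt9a no longer passed it, 0 higher pathway genes, and 145 and 221 of all genes. A pseudocount of 0.1 and scaling of both columns to a larger common sum each added Lef1, for 3 higher members, and added Nkd2 and Csnk1e to the pathway list, for 4 higher and 5 lower genes. Subtracting the neighbours' median left 2 lower pathway genes, and 50.0% of all calls were then in the higher direction against 45.2% as reported and 36.7% with a pseudocount of 5. Scaling by the median of ratios moved no member across 2-fold, with a factor of 0.995. Of the 32 genes followed through the alternatives, none beyond 2-fold changed sign, whereas Axin1, Fzd5 and Wls, all within 2-fold, crossed 0 once the neighbours' median was subtracted (0.02, -0.02 and -0.01). No paired analysis was possible because each line has 1 library and no test was run, and for the same reason no library could be left out. Values near 1 fragment, as for Sfrp2 in KO, carry little information on size.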

Other observations

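Of 15 genes of the planar polarity and other receptor group, 8 passed the filter and 6 of these were within 2-fold. Daam2, given above, was higher (12.5%, against 2.84% of all genes), and Ptk7, also given above, was lower (12.5%, against 3.43%). So few genes cannot be set apart from those shares. Ryk, a receptor with a Wif-type Wnt-binding domain, was at 43.0 FPKM in WT and 50.8 FPKM in KO. Ror2, the receptor best known for Wnt5a, was at 2.69 and 2.01 FPKM, and Ror1 was at 0.141 and 0.020 FPKM. Of the planar polarity genes, Vangl1 was at 12.6 FPKM in both libraries and Vangl2 at 1.65 and 2.05 FPKM. Scrib was at 29.9 and 22.5 FPKM, a log2 change of -0.40. Musk, the muscle receptor of the neuromuscular junction, which carries a Frizzled-like domain, was at 1.23 and 0.555 FPKM and below the filter.

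Of 10 genes of the R-spondin, Lgr and receptor turnover group, 4 passed the filter (Lgr4, Lgr6, Znrf3 and Kremen1), each with a higher value in KO. None was beyond 2-fold, beside background shares of 2.84% upward and 3.43% downward, from which so few genes cannot be set apart. Lgr4, an R-spondin receptor, was at 10.5 FPKM in WT and 16.9 FPKM in KO, and Lgr6 was at 3.64 and 5.31 FPKM. Znrf3, the ubiquitin ligase that removes Frizzled receptors, was at 4.32 and 5.06 FPKM, while its relative Rnf43 was listed at 0 in WT and at 0.020 FPKM in KO. Kremen1, a Dkk receptor that acts on Lrp co-receptors, was at 19.0 and 23.9 FPKM. Of the ligands of this axis, Rspo1 was at 0.658 FPKM in WT and 0.019 FPKM in KO, and Rspo2 and Rspo4 were at or near 0. Lgr5 was at 0.035 FPKM in WT and listed at 0 in KO.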
